A study of Homo sapiens with 12 samples.

Results

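The genes described here code for 9 integrin subunits and the chemokine receptor CXCR4, which take part in the adhesion of myeloma cells in the bone marrow. They were 10 of the 17710 rows measured on Clariom S arrays in MM.1S cells, an established human multiple myeloma line that is sensitive to dexamethasone. The genes were chosen by their part in adhesion, with the differences between the 4 groups on these same arrays already known, so their values are given as a description. The limma fit over all rows also covers them, and its calls among them are counted beside the share of all rows called, with nothing read from these counts. The arrays asked what PIM447, a pan-PIM kinase inhibitor, and the standard pair of pomalidomide and dexamethasone do to gene expression, alone and together.

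Control cells were left untreated. The PIM group received PIM447 at 100 nM for 24 h. The Pd group received pomalidomide, which redirects the cereblon ubiquitin ligase, at 200 nM together with dexamethasone, a glucocorticoid, at 5 nM for 15 h. The PIM-Pd group received all 3 drugs at those doses for 10 h. Each group had 3 arrays, 1 from each of 3 independent experiments, and viability in the treated cells was 74% to 81%. The hours of treatment differed in every treated group, so drug and time cannot be told apart in any comparison below. The model is 1 cell line grown in medium with serum, and adhesion itself was not measured on these arrays.

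Integrins are surface receptors made of an alpha and a beta subunit, and the pairing decides which ligand is bound. ITGB1 pairs with many alpha subunits, among them ITGA8, ITGA4, ITGA6 and ITGAV, whereas ITGB8 pairs with ITGAV alone and binds latent TGF-beta. In myeloma, the ITGA4 and ITGB1 pair holds plasma cells to VCAM1 and fibronectin in the marrow. CXCR4 is the receptor for CXCL12, a chemokine of marrow stromal cells that guides homing and switches integrins to their binding state.

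Promoter windows from RefSeq (GRCh38.p14), each from 250 bases before to 50 bases after a transcription start, matched 8 of the 10 genes by symbol. ITGAL and ITGB2 had no window. The 250 bases before the start are shown for 3 genes whose expression differed between groups, and for ITGA6, the only one of the 8 genes whose windows held the motifs that were searched first. Where a gene had several windows, that of its outermost start is shown. Each sequence reads 5′ to 3′ on the strand of its gene. The capitals mark AGAACA, the E-box CACGTG and the GC box GGGCGG, on either strand and with overlapping copies joined. AGAACA is only a part of a glucocorticoid receptor site.

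ITGA8, chr10:15719923-15720172, minus strand: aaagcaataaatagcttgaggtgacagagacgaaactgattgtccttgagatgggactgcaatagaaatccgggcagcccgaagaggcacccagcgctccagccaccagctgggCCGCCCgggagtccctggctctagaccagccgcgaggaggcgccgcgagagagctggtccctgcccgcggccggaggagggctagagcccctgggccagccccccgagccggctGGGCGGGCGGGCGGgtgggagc

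ITGB1, chr10:32958231-32958480, minus strand: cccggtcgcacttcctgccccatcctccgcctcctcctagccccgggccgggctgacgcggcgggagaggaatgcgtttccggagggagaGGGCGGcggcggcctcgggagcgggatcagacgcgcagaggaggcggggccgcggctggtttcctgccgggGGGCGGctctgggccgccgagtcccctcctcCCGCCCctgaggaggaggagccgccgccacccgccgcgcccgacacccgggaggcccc

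CXCR4, chr2:136118150-136118399, minus strand: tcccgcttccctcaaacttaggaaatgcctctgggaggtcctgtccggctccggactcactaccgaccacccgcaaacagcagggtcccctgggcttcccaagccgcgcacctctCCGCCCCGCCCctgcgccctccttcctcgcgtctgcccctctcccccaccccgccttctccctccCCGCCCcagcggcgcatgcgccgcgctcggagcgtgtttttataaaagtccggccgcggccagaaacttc

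ITGA6, chr2:172427086-172427335, plus strand: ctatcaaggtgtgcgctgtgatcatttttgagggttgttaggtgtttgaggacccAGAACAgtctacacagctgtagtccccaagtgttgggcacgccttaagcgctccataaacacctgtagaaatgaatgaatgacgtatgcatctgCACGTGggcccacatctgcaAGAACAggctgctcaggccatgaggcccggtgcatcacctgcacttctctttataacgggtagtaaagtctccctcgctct

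AGAACA was found in 14.8% of all 35116 windows and CACGTG in 7.26%. Among the 13 windows of the 8 genes, both windows of ITGA6 held AGAACA, and the window shown also held CACGTG. In that window AGAACA began at -195 and at -81 from the start, and CACGTG at -101. The windows of ITGA8, ITGB8, ITGB1 and CXCR4 did not contain the letters AGAACA or CACGTG. The GC box, which was added after the sequences had been seen, was found in 45.0% of all windows and in 7 of the 13 windows, from the 5 genes ITGA8, ITGB8, ITGB1, CXCR4 and ITGA6. In ITGA8, 3 overlapping copies began at -22, -18 and -14. These matches describe the letters of the windows and say nothing about binding.

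Expression values are RMA values on a log2 scale, on which a difference of 1 is a 2-fold difference. Probe sets of different genes cannot be set against each other, so levels are compared only within a gene. Errors of group means are SD over 3 arrays, and errors of differences are standard errors of a limma fit to all 12 arrays. RMA gives all arrays about the same distribution, so each difference is relative to the other rows, and a lower value does not tell apart fewer expressing cells from less RNA per cell. The arrays of PIM replicates 1 and 2 and PIM-Pd replicate 1 had the narrowest spread over all rows, with an SD of 1.91 on each, against 1.93 to 1.95 on the other 9. Values without these arrays are given in the comparisons of the PIM and PIM-Pd groups.

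ITGA8 (ENSG00000077943_at), an alpha subunit that pairs with ITGB1 and binds nephronectin and fibronectin, was far lower in both groups that received Pd. In control cells ITGA8 read 10.52, 10.72 and 10.71, and after PIM447 10.86, 10.72 and 10.75. After Pd the values were 9.07, 9.13 and 9.16, and after PIM-Pd 8.90, 9.36 and 8.93. The highest array with Pd lay more than 1 log2 unit below the lowest array without it, and the arrays within each of these 2 sets overlapped between groups. ITGA8 means were 10.65 ± 0.11 in control, 10.78 ± 0.08 with PIM447, 9.12 ± 0.05 with Pd and 9.06 ± 0.26 with PIM-Pd (SD, n = 3). The Pd mean differed from control by -1.53 ± 0.13 (a level 2.90-fold lower), and only 1 of the 17710 rows had a more negative difference. The PIM-Pd mean differed from control by -1.59 ± 0.13 (3.01-fold lower), with 9 rows more negative.

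ITGB1 (ENSG00000150093_at), the beta subunit that most of the alpha subunits here share, was higher in both groups with Pd. ITGB1 read 8.22, 7.57 and 8.11 in control, 8.20, 7.72 and 8.20 with PIM447, 8.81, 8.80 and 8.67 with Pd, and 8.66, 8.71 and 8.86 with PIM-Pd. Every array with Pd was above every array without it, and the low readings were those of experiment 2 in control and PIM. ITGB1 means were 7.97 ± 0.35 in control, 8.04 ± 0.27 with PIM447, 8.76 ± 0.08 with Pd and 8.74 ± 0.10 with PIM-Pd (SD, n = 3). The difference from control was 0.79 ± 0.17 after Pd (1.73-fold) and 0.77 ± 0.17 after PIM-Pd (1.71-fold). A more positive difference was found in 291 rows after Pd and in 301 after PIM-Pd.

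ITGB8 (ENSG00000105855_at), the beta subunit of the latent TGF-beta receptor, was lower in the groups with Pd and varied most between replicates. ITGB8 read 6.29, 5.34 and 5.85 in control and 6.11, 5.55 and 5.82 with PIM447. With Pd it read 3.80, 4.78 and 4.52, and with PIM-Pd 4.91, 4.07 and 4.50. Arrays with and without Pd did not overlap, although the highest PIM-Pd array at 4.91 came close to the lowest control array at 5.34. ITGB8 means were 5.83 ± 0.48 in control, 5.83 ± 0.28 with PIM447, 4.37 ± 0.51 with Pd and 4.49 ± 0.42 with PIM-Pd (SD, n = 3). The difference from control was -1.46 ± 0.28 after Pd (2.75-fold lower) and -1.33 ± 0.28 after PIM-Pd (2.52-fold lower). A more negative difference was found in 4 rows after Pd and in 23 after PIM-Pd. The lowest Pd array, replicate 1 at 3.80, lay near the lower quartile of all values at 3.63, where differences are hard to measure. Between same-numbered arrays the Pd difference of ITGB8 was -2.49, -0.56 and -1.34, and without replicate 1 in every group it was -0.95.

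ITGAV (ENSG00000138448_at), the alpha partner of ITGB8, had nearly the same mean with Pd as in control. ITGAV means were 5.35 ± 0.07 in control, 5.54 ± 0.10 with PIM447, 5.35 ± 0.25 with Pd and 5.69 ± 0.26 with PIM-Pd (SD, n = 3). The PIM arrays read 5.51, 5.46 and 5.65 and the PIM-Pd arrays 5.44, 5.68 and 5.95, all above the highest control array at 5.42. The PIM, Pd and PIM-Pd arrays overlapped each other. The difference from control was 0.19 ± 0.15 after PIM447, 0.00 ± 0.15 after Pd and 0.34 ± 0.15 after PIM-Pd. Without PIM-Pd replicate 3 the PIM-Pd difference was 0.21, and without PIM-Pd replicate 1, of narrow spread, it was 0.47.

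**Figure D1:**
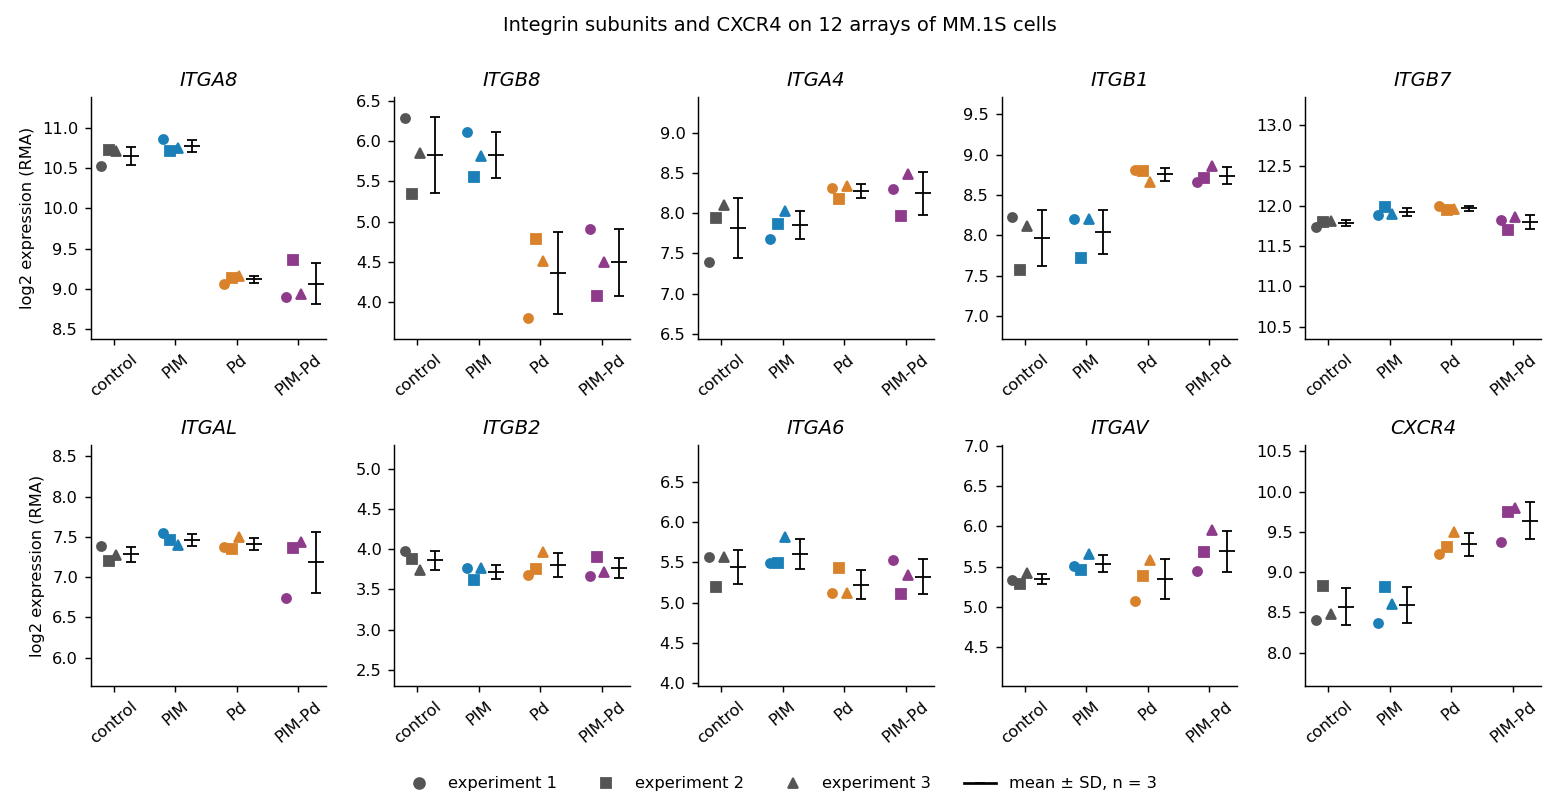
Log2 expression (RMA, vertical axis, 3 log2 units high in each panel) of the 10 genes in the 4 groups. Each symbol is 1 array, with its shape giving the experiment, and the bar is the mean ± SD of 3 arrays; ITGA8 and ITGB8 sit lower, and ITGB1 and CXCR4 higher, on all 6 arrays with Pd than on the 6 without.

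CXCR4 (ENSG00000121966_at), the homing receptor, was also higher with Pd. CXCR4 read 8.40, 8.83 and 8.49 in control, 8.36, 8.81 and 8.60 with PIM447, 9.23, 9.31 and 9.50 with Pd, and 9.37, 9.74 and 9.80 with PIM-Pd. The arrays with Pd were all above those without it, and the Pd and PIM-Pd arrays overlapped each other. CXCR4 means were 8.57 ± 0.22 in control, 8.59 ± 0.22 with PIM447, 9.35 ± 0.14 with Pd and 9.64 ± 0.23 with PIM-Pd (SD, n = 3). The difference from control was 0.77 ± 0.16 after Pd (1.71-fold) and 1.07 ± 0.16 after PIM-Pd (2.09-fold). A more positive difference was found in 304 rows after Pd and in 130 after PIM-Pd.

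ITGA4 (ENSG00000115232_at), the alpha subunit that binds VCAM1, had smaller differences. ITGA4 read 7.39, 7.94 and 8.11 in control and 7.68, 7.86 and 8.03 with PIM447. It read 8.31, 8.18 and 8.34 with Pd, and 8.30, 7.96 and 8.49 with PIM-Pd. The Pd arrays were all above the control arrays, whereas the PIM-Pd array of experiment 2 fell within the control range. The difference from control was 0.46 ± 0.18 after Pd and 0.43 ± 0.18 after PIM-Pd, and the control arrays alone had an SD of 0.37. Without control replicate 1, the lowest array, ITGA4 differed by 0.25 after Pd and 0.22 after PIM-Pd. Between same-numbered arrays the difference was 0.92, 0.23 and 0.23 after Pd, and 0.90, 0.02 and 0.38 after PIM-Pd.

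ITGB7 (ENSG00000139626_at), which pairs with ITGA4 to bind MADCAM1, had the tightest replicates. ITGB7 means were 11.78 ± 0.04 in control, 11.93 ± 0.05 with PIM447, 11.97 ± 0.03 with Pd and 11.79 ± 0.09 with PIM-Pd (SD, n = 3). The 4 group means lay within 0.18 of each other. The PIM and Pd arrays overlapped, as did the control and PIM-Pd arrays, and the lowest PIM array at 11.89 was above the highest PIM-Pd array at 11.86.

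ITGAL (ENSG00000005844_at) and ITGB2 (ENSG00000160255_at) form the leukocyte integrin that binds ICAM1. ITGAL read 7.39, 7.20 and 7.27 in control and 6.75, 7.36 and 7.44 with PIM-Pd, where the low reading came from PIM-Pd replicate 1, an array of narrow spread. On the other arrays of narrow spread, PIM replicates 1 and 2, ITGAL read 7.54 and 7.46. The difference of ITGAL between PIM-Pd and control was -0.10 ± 0.15. Without the 3 arrays of narrow spread, of which only PIM-Pd replicate 1 enters this difference, it was 0.12. Without PIM-Pd replicate 3 it was -0.23, and with replicate 3 left out of all groups it was -0.24. ITGB2 lay between 3.62 and 3.97 on the 12 arrays, near the lower quartile of all values at 3.63, where differences are hard to measure. Its 4 groups overlapped, with means from 3.72 to 3.86.

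ITGA6 (ENSG00000091409_at), an alpha subunit of laminin receptors, read from 5.10 to 5.82. Its group means were 5.44 ± 0.21 in control, 5.60 ± 0.19 with PIM447, 5.22 ± 0.18 with Pd and 5.32 ± 0.21 with PIM-Pd (SD, n = 3). The Pd mean differed from control by -0.22 ± 0.15, with same-numbered differences of -0.44, 0.23 and -0.45, so that experiment 2 went the other way. Without control replicate 2 the difference was -0.34, and with replicate 2 left out of all groups it was -0.45. With replicate 1 left out of all groups it was -0.11, and with replicate 3 left out it was -0.10. The control arrays overlapped those of every treated group.

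**Figure D2:**
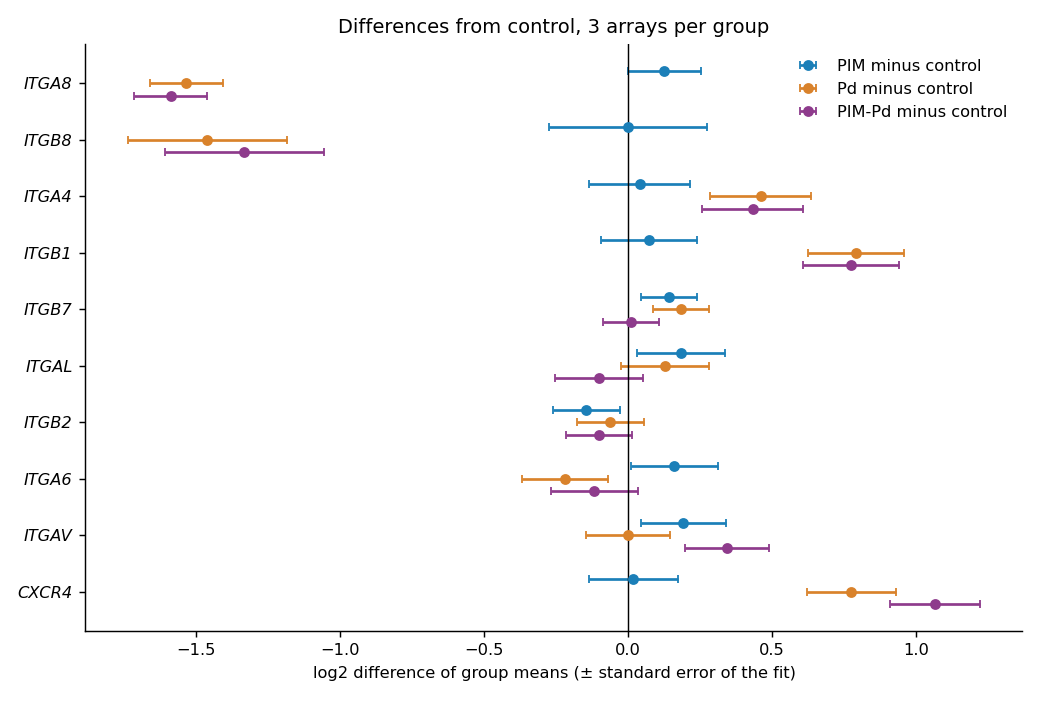
Difference of group means from control (log2, horizontal axis) for the 10 genes, with bars of ± 1 standard error of the limma fit, 3 arrays per group. The Pd and PIM-Pd points lie near -1.5 for ITGA8, from -1.46 to -1.33 for ITGB8, and above 0.7 for ITGB1 and CXCR4, while the PIM points lie from -0.15 to 0.19.

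The order of the groups, from the highest mean to the lowest, was PIM, control, Pd and PIM-Pd for ITGA8. For ITGB8, whose control and PIM means were both 5.83, the order was control, PIM, PIM-Pd and Pd. For ITGB1 it was Pd, PIM-Pd, PIM and control, and for CXCR4 it was PIM-Pd, Pd, PIM and control. In these 4 genes the only neighbours in the order whose arrays did not overlap were the inner 2, at the step between groups with and without Pd. For ITGA4, ITGAL, ITGB2 and ITGA6 the arrays of all neighbouring groups overlapped. How many of all rows had groups without overlap was not counted, so nothing is read from overlap in any of the genes.

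By experiment, ITGA8 was lower after Pd than in the same-numbered control each time, with differences of -1.46, -1.59 and -1.55. For ITGB1 the Pd difference was 0.59, 1.23 and 0.55, the highest coming from experiment 2, in which its control was lowest. For CXCR4 the Pd difference was 0.82, 0.49 and 1.02, and the PIM-Pd difference was 0.97, 0.91 and 1.32. ITGB8 after PIM-Pd differed from its same-numbered controls by -1.38, -1.27 and -1.35.

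**Figure D3:**
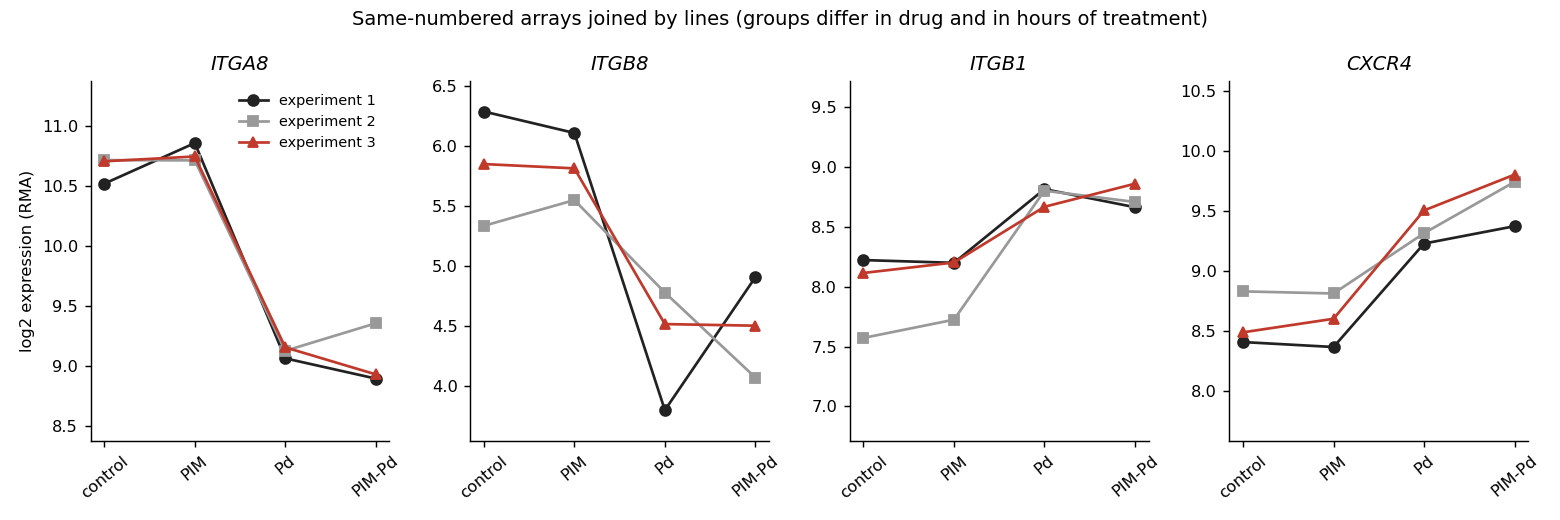
Log2 expression (RMA, vertical axis) of 4 genes in the 4 groups, with the same-numbered arrays of an experiment joined by a line. All 3 lines step down for ITGA8 and ITGB8 and up for ITGB1 and CXCR4 between PIM and Pd, and the ITGB8 lines cross among the groups with Pd.

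Pd against control asked what the standard pair did to expression. In the limma fit, at a Benjamini-Hochberg adjusted p under 0.05, 2 of the 10 genes were called higher (ITGB1 and CXCR4), where 3.48% of all rows were, and 2 were called lower (ITGA8 and ITGB8), where 1.94% of all rows were. The other 6 were not called, and the largest difference among them was that of ITGA4. When a fold of at least 2 was also required, ITGA8 and ITGB8 were called lower, with 0.164% of all rows, and none of the 10 genes higher, with 0.915%. The median difference was 0.06 over the 10 genes and -0.01 over all rows. Without Pd replicate 1 ITGB1 was not called (difference 0.76), and without Pd replicate 3 CXCR4 was not (0.70). With replicate 1 left out of all groups ITGB8 (-0.95) and ITGB1 (0.89) were not called, without replicate 2 ITGB1 (0.57) was not, and without replicate 3 ITGB8 (-1.52), ITGB1 (0.91) and CXCR4 (0.65) were not. ITGA8 was called each time. The 960 rows called became 520 and 497 without those arrays, and 522 and 608 without control replicates 1 and 3.

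PIM-Pd against control asked the same of the 3 drugs together. The same 4 genes were called, ITGB1 and CXCR4 among the 4.42% of all rows called higher, and ITGA8 and ITGB8 among the 5.02% called lower. With a fold of at least 2 as well, CXCR4 was called higher, with 0.875% of all rows, and ITGA8 and ITGB8 lower, with 0.565%. CXCR4 lay close to that limit, and fell below a 2-fold difference without control replicate 1 (0.98), without PIM-Pd replicate 3 (0.98) and with replicate 3 left out of all groups (0.94). Without the 3 arrays of narrow spread the differences were -1.51 for ITGA8, -1.54 for ITGB8, 0.81 for ITGB1 and 1.20 for CXCR4, and all 4 were still called. Without control replicate 3 the 1671 rows called became 1096, and the same 4 genes were called. With replicate 3 left out of all groups 534 rows were called, with ITGA8 and CXCR4 but not ITGB8 (-1.32) or ITGB1 (0.79). This comparison and the previous one share the control arrays.

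**Figure D4:**
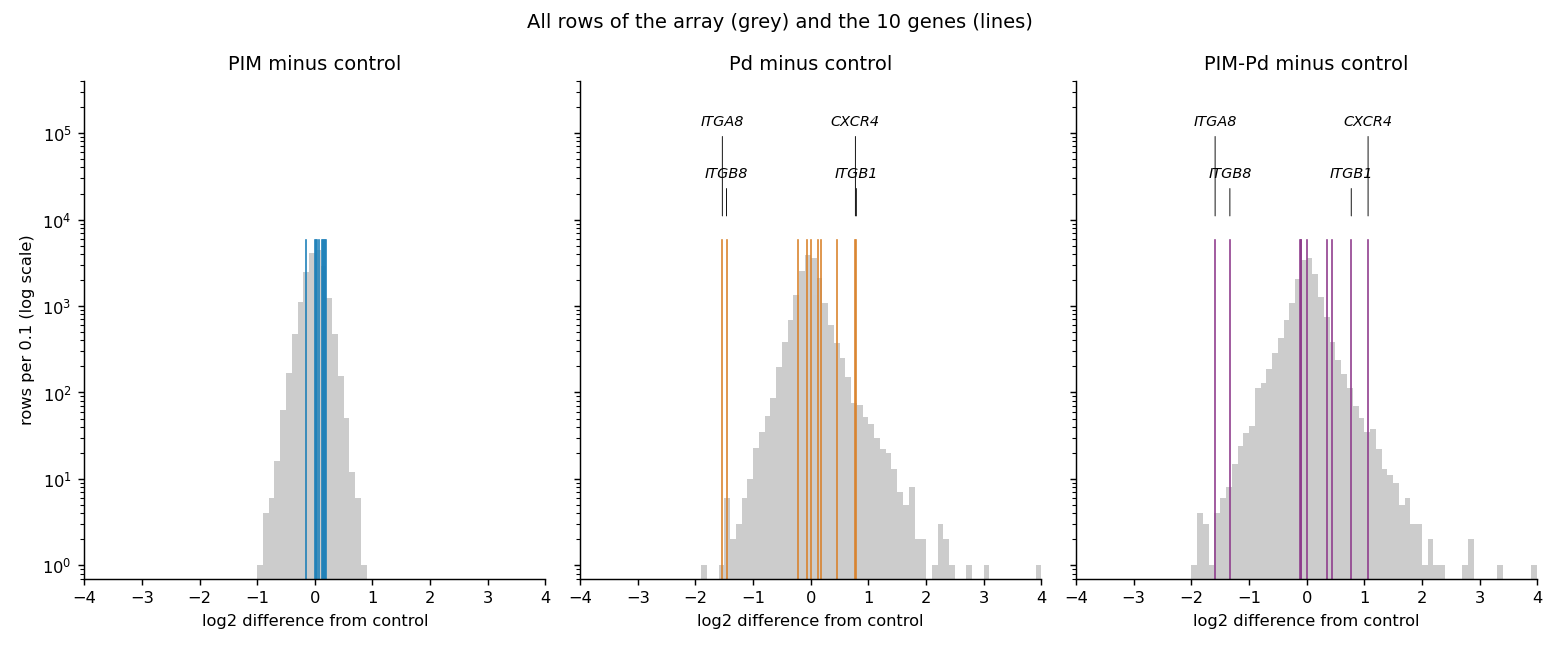
Number of rows (vertical axis, log scale) by their log2 difference from control (horizontal axis, bars 0.1 wide, rows beyond 4 placed in the outermost bar) for PIM, Pd and PIM-Pd. Coloured lines mark the 10 genes; ITGA8 and ITGB8 stand at the lower edge of the Pd distribution, with 1 and 4 rows more negative.

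PIM against control asked what the kinase inhibitor did alone. The differences of the 10 genes ran from -0.15 to 0.19, with ITGAV at 0.19 ± 0.15, ITGAL at 0.18 ± 0.15 and ITGB2 at -0.15 ± 0.12. ITGA8 differed by 0.13 ± 0.13, ITGB8 by 0.00 ± 0.28, ITGB1 by 0.07 ± 0.17 and CXCR4 by 0.02 ± 0.16. The limma fit called 0 of the 10 genes and 0 of all rows (0%), while 1098 rows and 0 of the 10 genes had an unadjusted p under 0.05, and the fit with replicates as a block also called 0 rows. Without the 2 PIM arrays of narrow spread the comparison rests on 1 PIM array, and ITGA6 then differed by 0.38, ITGAV by 0.31, ITGB1 by 0.23, ITGA4 by 0.21, ITGAL by 0.11 and ITGB2 by -0.09. With 1 array left out, ITGB8 ran from -0.24 to 0.23, ITGB1 from -0.13 to 0.23, CXCR4 from -0.09 to 0.15, ITGA8 from 0.06 to 0.16 and ITGB2 from -0.21 to -0.09. ITGA6, at 0.16 with all arrays, ran from 0.04 (without control replicate 2) to 0.22. ITGA4, at 0.04 with all arrays, ran from -0.17 (without control replicate 1) to 0.19. With replicate 1 left out of all groups ITGA8 was at 0.02.

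PIM-Pd against Pd asked what PIM447 added to the pair. ITGA8 differed by -0.05 ± 0.13, ITGB8 by 0.13 ± 0.28 and ITGB1 by -0.02 ± 0.17, all within their standard errors. With 1 array left out all 3 changed sign, ITGA8 running from -0.20 to 0.03, ITGB8 from -0.15 (without Pd replicate 1) to 0.34 (without PIM-Pd replicate 2) and ITGB1 from -0.08 to 0.02. The same-numbered differences of ITGB8 were 1.11, -0.71 and -0.01. ITGB8 was at -0.36 with replicate 1 left out of all groups and at 0.55 with replicate 2 left out. The largest differences were those of ITGAV at 0.35 ± 0.15 and CXCR4 at 0.29 ± 0.16. For CXCR4 the same-numbered differences were 0.14, 0.43 and 0.30, and for ITGAV 0.36, 0.30 and 0.38, but for both genes the arrays of the 2 groups overlapped. With 1 array left out, ITGAV ran from 0.21 (without Pd replicate 1) and 0.22 (without PIM-Pd replicate 3) to 0.47 (without PIM-Pd replicate 1, of narrow spread). CXCR4 ran from 0.21 without PIM-Pd replicate 3 to 0.42 without PIM-Pd replicate 1. The limma fit called 0 of the 10 genes, beside 0.0791% of all rows, and 1 of the 10 had an unadjusted p under 0.05, as had 1518 of all rows.

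PIM-Pd against PIM asked what the pair added to PIM447. ITGA8 differed by -1.71 ± 0.13, ITGB8 by -1.33 ± 0.28, ITGB1 by 0.70 ± 0.17 and CXCR4 by 1.05 ± 0.16. ITGB1 and CXCR4 were called higher, as were 2.95% of all rows, and ITGA8 and ITGB8 lower, as were 2.71%. When a fold of at least 2 was also required, 121 rows were called higher and 52 lower, and ITGB1 was not called. CXCR4 lay close to that limit. It fell below a 2-fold difference without PIM replicate 1 (0.93), PIM-Pd replicate 2 (0.9955) or PIM-Pd replicate 3 (0.97). With replicate 3 left out of all groups CXCR4 was also below it (0.97). All 3 arrays of narrow spread are in these 2 groups, and without them 228 rows were called in place of 1003, with PIM left at 1 array. ITGA8 (-1.60) and CXCR4 (1.17) were then called, and ITGB8 (-1.53) and ITGB1 (0.58) were not. With replicate 3 left out of all groups ITGB8 (-1.34) and ITGB1 (0.72) were not called either, and without replicate 1 (0.82) or replicate 2 (0.56) ITGB1 was not. Without PIM-Pd replicate 3 there were 648 rows called, and ITGB1 was not called without PIM replicate 2 (0.54), PIM-Pd replicate 2 (0.72) or PIM-Pd replicate 3 (0.64).

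The last comparison asked whether the PIM447 difference with Pd departed from that without Pd. This difference of differences was -0.18 ± 0.18 for ITGA8, 0.13 ± 0.39 for ITGB8, -0.09 ± 0.24 for ITGB1 and 0.27 ± 0.22 for CXCR4. With all arrays the values farthest from 0 were -0.41 ± 0.22 for ITGAL and -0.32 ± 0.14 for ITGB7. Without the 3 arrays of narrow spread, which leaves 1 PIM array, ITGAL was at -0.12 and ITGB7 at -0.31, and the values farthest from 0 were 0.40 for CXCR4 and -0.38 for ITGA6. ITGA8 was then at -0.07, ITGB8 at -0.07 and ITGB1 at -0.21. With 1 array left out, ITGA8 ran from -0.33 to -0.10, ITGB8 from -0.15 to 0.37, ITGB1 from -0.25 to 0.11, CXCR4 from 0.15 to 0.41 and ITGAL from -0.54 to -0.19. With replicate 1 left out of all groups ITGB8 was at -0.45 and ITGA8 at -0.02. With replicate 2 left out of all groups they were at 0.66 and -0.39. The limma fit called 0 of the 10 genes and 0.0169% of all rows, and 1 of the 10 had an unadjusted p under 0.05, as had 1033 of all rows.

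The rows most like ITGA8, ITGB8 and CXCR4, whose group means spanned at least 1 log2 unit, were sought among 364 other rows with such a span, by Pearson correlation over the 12 arrays. The row most like ITGA8 was ENSG00000196208_at (r = 0.981) and the row most like ITGB8 was ENSG00000076248_at (r = 0.899), which differed from control by -1.04 and -1.09 after PIM-Pd. Those most like CXCR4 were ENSG00000167077_at (r = 0.974) and ENSG00000084070_at (r = 0.962), which differed from control by 1.92 and 1.18 after PIM-Pd. The arrays share their treatments, so r mostly describes the step between groups with and without Pd.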

How the data were processed

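Total RNA from 12 MM.1S cultures was hybridised to Clariom S arrays. The authors made the deposited log2 values by RMA with oligo 1.44.0 in R 3.5.0, per the labels, using a custom probe annotation by Ensembl gene. These values were used as given, with no filter. limma 3.58.1 in R 4.3.3 (lmFit and eBayes, 1 mean per group, 17710 rows, Benjamini-Hochberg over all rows) was fitted to all 12 arrays. The study's own test, SAM, was not run. The genes, gene lists and motifs were chosen with earlier results of these data known. Named rows were the 10 genes and the rows most correlated with them. The reference tables used here paired 0 of the row identifiers with a symbol, so the planned gene lists, cell type markers, glucocorticoid targets and olfactory receptor reference, which are held by symbol, were not evaluated. The names of the 10 genes came with their identifiers. Replicate numbers pair the arrays in the labels; deviations from group means of the 18 same-numbered pairs correlated from -0.101 to 0.303, with 9 over 0.1. Alternatives were a replicate block, the 2 compared groups only, median centring, quantile normalization, an intensity trend, a fold minimum, a filter on dim rows, and leaving out arrays.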

Additional observations from a re-analysis of the deposited data

Results flagged for a closer look

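ITGB7 was higher with PIM447 than in the same-numbered control in all 3 experiments, by 0.15, 0.18 and 0.09 on the log2 scale. With Pd present it was lower with PIM447 in all 3, with PIM-Pd minus Pd at -0.18, -0.25 and -0.10. The mean differences were 0.14 and -0.17. ITGB7 was picked out here by the signs in each experiment and not by a test. How many of all rows had the same signs was not counted, and PIM replicates 1 and 2 were arrays of narrow spread. In the limma fit over all rows this difference of differences of ITGB7 was -0.32 ± 0.14 (standard error) and was not called at an adjusted p under 0.05. A more negative value was found in 1486 of the 17710 rows. The hours of treatment differ between all of these groups.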

How the results depend on the processing

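The replicate block called 1181 rows in Pd against control (960 without it), 1934 in PIM-Pd against control (1671), 11 in PIM-Pd against Pd (14), 1262 in PIM-Pd against PIM (1003), 2 in the difference of PIM447 effects (3) and 0 in PIM against control (0), and it changed no call of the 10 genes. Requiring a fold of at least 2 gave 191, 255, 1 and 173 rows in the first 4 of these, with 2 of the 10 genes in Pd against control, and 3 in PIM-Pd against control and in PIM-Pd against PIM, in place of 4. Fitting only the 2 compared groups gave 1328 rows in Pd against control, 1413 in PIM-Pd against control, 1 in PIM-Pd against Pd and 455 in PIM-Pd against PIM. In PIM-Pd against Pd, quantile normalization gave 8 rows and an intensity trend 25. Leaving out the 3 arrays of narrow spread, which was chosen after seeing the data and assumes that the lone PIM array varies like the others, gave 1276 rows in Pd against control, 1541 in PIM-Pd against control, 3 in PIM-Pd against Pd, 228 in PIM-Pd against PIM with 2 of the 10 genes called, and 0 in the difference of PIM447 effects. The causes were not tested.

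Leaving out 1 array, or 1 replicate number in all groups, which leaves fewer samples, gave 266 to 720 rows in Pd against control, 534 to 1435 in PIM-Pd against control, 0 to 15 in PIM-Pd against Pd, 305 to 901 in PIM-Pd against PIM, and 0 to 3 in the difference of PIM447 effects. Of the 10 genes, 1 to 4 were called in Pd against control, 2 to 4 in PIM-Pd against control and 2 to 4 in PIM-Pd against PIM. The ITGB8 difference in Pd against control ranged from -1.91 to -0.95. The block, the fit of 2 groups, the intensity trend and the dim-row filter cannot change a difference of means, and neither can the 3 arrays of narrow spread in Pd against control. Of the other log2 differences of the 10 genes under all alternatives, 740 moved by less than 1 SD of the replicates, 30 moved by more, and no called difference changed sign. The filter on dim rows, at the lower quartile of all values (3.63), was chosen after seeing the data. It kept 13863 rows and changed no call of the 10 genes.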
